A study of Mus musculus with 21 samples.

Results

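Fatty acid oxidation, the pyruvate dehydrogenase complex and the TCA cycle were examined in hearts of Chd4 null and Chd4 flox mouse embryos. The set of 37 genes was taken by symbol from 24509 genes in the expression tables. The members were chosen as known enzymes of these pathways, together with 4 of their transcriptional regulators, and all 37 were found in both tables. Null hearts carried 2 recombined alleles, Chd4(Δflox/Δflox), and flox hearts the unrecombined alleles, Chd4(flox/flox), both on the CD1 strain. Polyadenylated RNA of hearts was sequenced in 5 null and 5 flox libraries at embryonic day (E) 9.5, and in 3 null and 3 flox libraries at E10.5. Chromatin immunoprecipitation (ChIP) with an anti-CHD4 antibody located CHD4 in wild-type CD1 hearts at E10.0. CHD4 is the ATPase with which the NuRD complex remodels nucleosomes. The recombinase that deleted the floxed alleles, and whether hearts were pooled for a library, are not given in the sources used here. Below, a numbered or counted heart means a library.

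Long-chain fatty acids enter mitochondria as carnitine esters, and carnitine palmitoyltransferase 1 on the outer membrane sets the rate of that entry. Beta-oxidation then shortens the acyl chain in cycles of dehydrogenation, hydration, a second dehydrogenation and thiolysis, while pyruvate dehydrogenase makes acetyl-CoA from glucose-derived pyruvate, and both supplies of acetyl-CoA meet in the TCA cycle. The early embryonic heart relies largely on glucose, fatty acid oxidation becomes the main fuel after birth, and estrogen-related receptors, PPARα and the coactivator PGC-1α are the best-known activators of these genes in the heart.

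Expression is given as RPKM, reads per kilobase of gene length per 1e6 reads, so levels can be compared between genes. Libraries held 14.6 to 17.1 M reads on listed genes in null and 16.9 to 20.0 M in flox hearts at E9.5, and 15.3 to 16.1 M in null and 15 to 15.8 M in flox hearts at E10.5. Chd4 itself measured 40.7 to 48.8 RPKM in null hearts against 91.2 to 94.6 RPKM in flox hearts at E9.5, and 48.2 to 57.4 RPKM against 67.2 to 91.1 RPKM at E10.5. Its log2 difference was -1.01 at E9.5 (limma adjusted p = 1.69e-06) and -0.55 at E10.5 (limma adjusted p = 0.116). Cardiomyocyte markers were abundant in all 16 libraries, and 2 of 12 (Myh6 and Actc1) were lower in null hearts at E9.5. That is 16.7% of them, against 10.3% of all genes lower and 17.2% called in either direction. The summed level of the 12 at E9.5 was 14235 to 16951 RPKM in null and 17471 to 19989.5 RPKM in flox hearts. Of 13 erythroid markers, 9 were higher in null hearts at E9.5 (69.2%, against 6.87% of all genes). Erythroid genes held 2.07 to 5.50% of reads in null and 0.814 to 2.13% in flox hearts. The members together held 0.575 to 0.631% of reads in null and 0.631 to 0.728% in flox hearts at E9.5. In such bulk samples, fewer cells of a type and less RNA per cell cannot be told apart, and the part of erythroid or cardiomyocyte content in the results below was not tested.

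At E9.5, 11 of 36 members tested were lower in null hearts, 5 of them TCA cycle genes, and the 2 forms of the entry enzyme moved in opposite directions. Cpt1b, the muscle form of carnitine palmitoyltransferase 1, was lower (-0.68 on the log2 scale), Cpt1a, the liver form, was higher (1.15), and the nuclear receptor gene Esrra was lower (-0.66). Beside the 11 lower members 1 was higher and 24 did not pass the test, which was limma on log2(RPKM + 0.5) with Benjamini-Hochberg adjustment over all genes tested and a threshold of 0.05. That is 30.6% of members lower, against 10.3% of all genes tested, and 33.3% of members called in either direction, against 17.2%. Higher calls made up 6.87% of all genes tested, and the 937 higher and 1405 lower genes became 1151 and 1029 with libraries rescaled to a common median, which left 1 member higher and 9 lower. The median log2 difference of the members was -0.12, against -0.04 over all genes, and 28 of 36 were negative, against 57.9% of all genes. In 10 members every null library lay below every flox library (8.57% of all genes), and in 0 members did every null library lie above (5.5% of all genes). With the erythroid level in the fit, 2 of the 11 lower calls remained, Cpt1b and Fh1 (log2 differences -0.58 with SE 0.0936, and -0.33 with SE 0.0654). The members' median was then -0.06 with 24 of 36 negative, against a median of -0.02 over all genes. Calls over all genes numbered 315 with that term, against 2342 without it and 1537 without null heart 5.

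**Figure D1:**
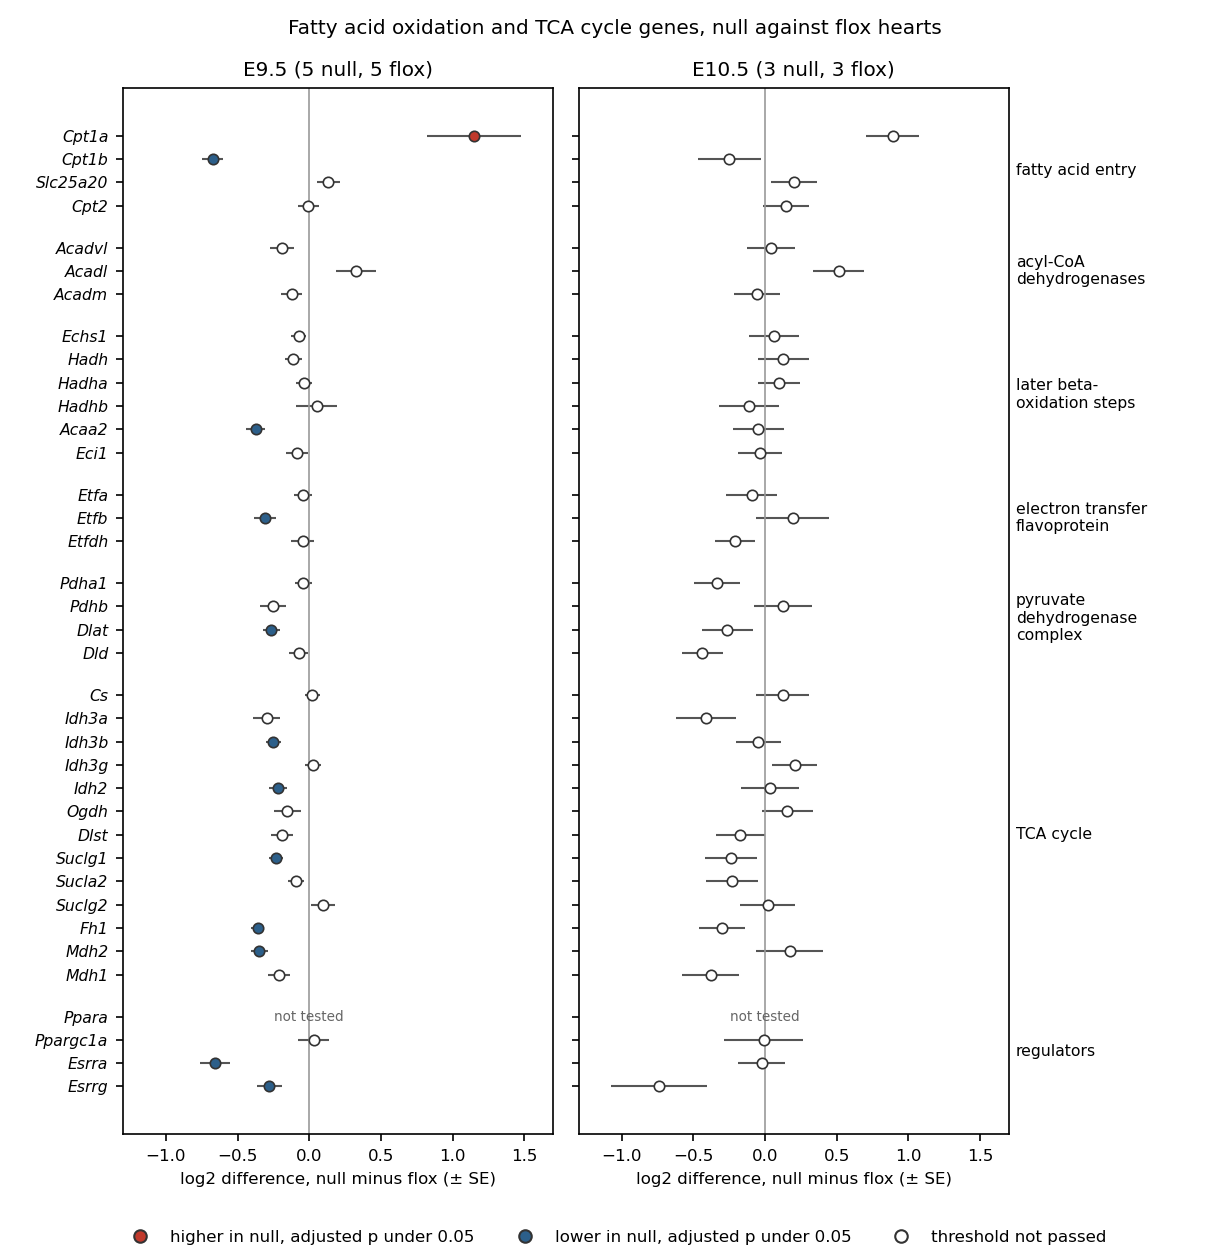
Log2 difference of null minus flox hearts, with its standard error, for the 36 members tested, by role, at E9.5 (left) and E10.5 (right). Filled points passed the adjusted threshold, which 12 members did at E9.5 and 0 at E10.5.

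The first group brings fatty acids into mitochondria. Cpt1b measured 35.6, 34.1, 34.7, 37.8 and 30.6 RPKM in the null hearts, against 56.5, 60.5, 48.7, 57.6 and 54.2 RPKM in the flox hearts at E9.5. The groups did not overlap, and the lowest flox heart stood above the highest null heart by more than the spread within either group (34.6 ± 2.61 RPKM in null hearts and 55.5 ± 4.44 RPKM in flox hearts, SD, n = 5 each). Cpt1b fell in null hearts with the smallest p of the members (log2 difference -0.68, SE 0.0707, limma adjusted p = 0.000217), and its value without any 1 library ranged between -0.72 and -0.63. Cpt1b lies wholly within Gm44502, a read-through transcript that joins it to its neighbour Chkb and that measured 27.7 RPKM in null and 41.8 RPKM in flox hearts, so reads of the 2 genes cannot be told apart and the level of Cpt1b is uncertain. At E10.5 Cpt1b measured 36.3, 29.7 and 25.9 RPKM in the null hearts, against 41.2, 26.5 and 43.3 RPKM in the flox hearts. Those libraries overlapped, and the difference did not pass the test (log2 difference -0.25, SE 0.218, limma adjusted p = 0.517).

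Cpt1a, the form that prevails in liver and fetal tissue, measured 2.79, 8.94, 7.26, 8.23 and 6.57 RPKM in the null hearts, against 1.4, 5.09, 1.89, 2.67 and 2.97 RPKM in the flox hearts at E9.5. Null heart 1 lay below flox heart 2 and beside flox hearts 4 and 5, so the groups overlapped, while the other 4 null hearts lay above all flox hearts. Cpt1a rose in null hearts (log2 difference 1.15, SE 0.327, limma adjusted p = 0.0352), and this call ended in 8 of the 10 fits that left out 1 library (log2 difference 0.97 to 1.41, adjusted p 0.00553 to 0.0825). It also ended with the erythroid level in the fit (limma adjusted p = 0.287), with library sex as a covariate (0.94, adjusted p = 0.119) and without the expression filter (adjusted p = 0.0552). Cpt1a was lowest in flox heart 1, flox heart 3, flox heart 4 and null heart 1 in that order, and 3 of these also held the lowest epicardial markers (mean log2 level 2.43 in flox heart 1, 3.52 in flox heart 3 and 3.08 in null heart 1, against 4.79 to 4.81 in the other null and 4.19 to 4.83 in the other flox hearts). With the epicardial level in the fit Cpt1a was higher by 0.74 (SE 0.132, limma adjusted p = 0.00629), and without those 3 libraries by 1.05 (SE 0.199, adjusted p = 0.0162); both settings were chosen after the values were seen. At E10.5 Cpt1a measured 14.8, 12.4 and 15.9 RPKM in the null hearts, against 5.98, 8.78 and 7.93 RPKM in the flox hearts. All 3 null hearts lay above all 3 flox hearts (14.4 ± 1.77 RPKM in null hearts and 7.57 ± 1.43 RPKM in flox hearts, SD, n = 3 each), and the difference just missed the threshold over all genes (log2 difference 0.89, SE 0.183, limma adjusted p = 0.051). The 6 foregut and liver markers had mean log2 levels of 1.16, 5.86 and 5.2 in the null hearts, against -0.22, 2.92 and -0.18 in the flox hearts. In these markers null heart 1 lay below flox heart 2. The part of foregut or liver tissue in the Cpt1a difference was not tested. The markers' median log2 difference was 3.24, with 0 of 6 called. Their summed level was 19.9 to 1371 RPKM in null and 2.65 to 177 RPKM in flox hearts. Erythroid genes held 4.28, 3.44 and 10.0% of reads in the null hearts, against 1.78, 5.12 and 1.76% in the flox hearts. Of 13 markers 1 was called, higher (7.69%, against 1.77% of all genes). With the foregut and liver level in the fit the log2 difference of Cpt1a was 0.83 (limma adjusted p = 0.161), and with the erythroid level 0.69 (adjusted p = 0.273). The authors' deposited table, whose log2 ratio is control over null, lists Cpt1a at both stages. Its ratio there was -0.72 at E9.5 (authors' adjusted p = 0.0128) and -0.87 at E10.5 (authors' adjusted p = 0.000472).

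The first 120 bases before 1 annotated start of Cpt1a (RefSeq, GRCm38.p6, chr19:3323181-3323300, plus strand) are shown because CHD4 was bound there and Cpt1a was the member that was higher. The annotated gene begins further upstream, at chr19:3322326, so these bases lie inside it. Capitals mark matches to the GC box (GGGCGG, here on the opposite strand as CCGCCC) and to CCAAT.
Cpt1a: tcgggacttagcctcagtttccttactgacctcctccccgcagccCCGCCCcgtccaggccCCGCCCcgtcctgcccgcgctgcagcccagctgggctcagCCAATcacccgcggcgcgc
A CHD4 peak of all 3 lists, 1007 bp wide, lay across this sequence at chr19:3322793-3323799, and a second of 203 bp lay downstream of that start at chr19:3325454-3325656.

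**Figure D2:**
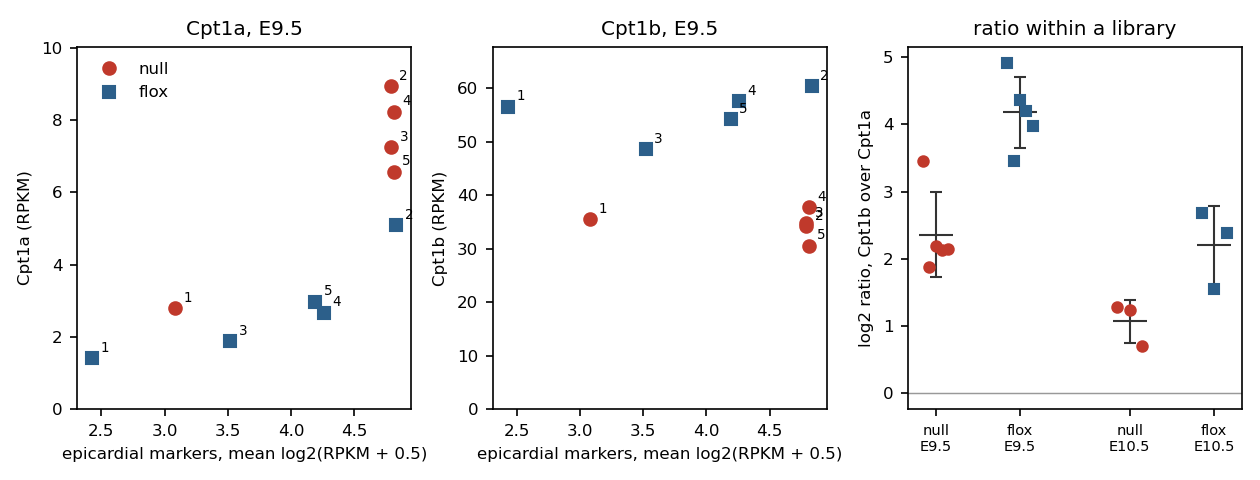
Cpt1a and Cpt1b (RPKM) of each E9.5 library against its mean log2 level of 6 epicardial markers, and the log2 ratio of Cpt1b over Cpt1a in each library with mean and SD; circles are null and squares flox hearts, and numbers are replicate numbers. The ratio was 1.88 to 3.46 in null and 3.45 to 4.91 in flox hearts at E9.5.

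Within a library the ratio of the 2 forms leaves out the scaling of the library. Cpt1b stood above Cpt1a by a log2 ratio of 3.46, 1.88, 2.18, 2.13 and 2.14 in the null hearts at E9.5, against 4.91, 3.45, 4.36, 4.20 and 3.98 in the flox hearts. Null heart 1 reached the lowest flox heart, flox heart 2, and the other null hearts lay below all flox hearts. The mean ratio differed by -1.82 (two-sided exact permutation test, p = 0.0159, adjusted over the 8 pairs tested 0.0635), so it did not pass. At E10.5 the log2 ratio was 1.27, 1.23 and 0.69 in null hearts, against 2.68, 1.54 and 2.38 in flox hearts. The groups did not overlap there, with an exact p of 0.1, which is the smallest that 3 against 3 allow. Of the other pairs, Esrrg over Esrra differed by 0.38 at E9.5 (exact p = 0.0159, adjusted 0.0635), and the other 6 had an exact p of 0.0556 to 0.683. At E10.5, 6 of the 8 pairs reached the same smallest p of 0.1 in the exact test (adjusted 0.133).

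The other genes of fatty acid entry did not pass the test at either stage. Slc25a20, the carnitine-acylcarnitine translocase of the inner membrane, measured 26.1 ± 2.91 RPKM in null and 23.7 ± 1.66 RPKM in flox hearts at E9.5 (log2 difference 0.13, adjusted p = 0.285, limma). Cpt2, which returns the acyl group to coenzyme A inside the mitochondrion, measured 24.1 ± 1.69 RPKM in null and 24.3 ± 2.3 RPKM in flox hearts (log2 difference -0.01, limma adjusted p = 0.954).

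Of the 3 acyl-CoA dehydrogenases, which take the first step of each cycle for long and medium chains, 0 passed the limma test at E9.5, and Acadvl and Acadl had an unadjusted p under 0.05. Acadl, the long-chain enzyme, had a positive difference at both stages, as had 5 other members. It measured 40.2, 56.7, 59.6, 65.3 and 64.9 RPKM in the null hearts, against 40.0, 54.9, 37.8, 47.4 and 46.3 RPKM in the flox hearts at E9.5. Null heart 1 was the lowest null heart and lay among the flox hearts (log2 difference 0.33, SE 0.14, limma adjusted p = 0.13). Without null heart 1 Acadl passed, at a log2 difference of 0.45 (limma adjusted p = 0.0139). At E10.5 Acadl measured 129.8, 96.5 and 116 RPKM in the null hearts, against 85.8, 66.4 and 87.4 RPKM in the flox hearts. These groups did not overlap, but the difference did not pass over all genes (log2 difference 0.51, SE 0.177, limma adjusted p = 0.151). Acadvl, the very-long-chain enzyme, measured 16.5 ± 1.92 RPKM in null and 18.9 ± 1.65 RPKM in flox hearts at E9.5 (log2 difference -0.19, limma adjusted p = 0.152), and Acadm, the medium-chain enzyme, 27.1 ± 2.37 RPKM in null and 29.6 ± 1.98 RPKM in flox hearts (-0.12, adjusted p = 0.252).

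Of 6 genes of the later steps of beta-oxidation, 1 passed at E9.5 (16.7%, against 17.2% of all genes). Acaa2, the mitochondrial thiolase that releases acetyl-CoA, measured 51.8, 58.6, 56.5, 50.4 and 54.4 RPKM in the null hearts, against 73.2, 77.5, 62.8, 66.2 and 74.1 RPKM in the flox hearts at E9.5. Every null heart lay below every flox heart, and Acaa2 fell (log2 difference -0.38, SE 0.0681, limma adjusted p = 0.00449). At E10.5 it measured 60.1, 67.2 and 83.9 RPKM in the null hearts, against 71.3, 62.6 and 83.7 RPKM in the flox hearts, groups that overlapped almost wholly (log2 difference -0.05, limma adjusted p = 0.894). Hadha, the alpha subunit of the trifunctional protein, Hadh, the 3-hydroxyacyl-CoA dehydrogenase, Echs1, the short-chain enoyl-CoA hydratase, and Eci1, an enoyl-CoA isomerase, had log2 differences of -0.04, -0.11, -0.07 and -0.09 at E9.5 and did not pass. Hadhb, the beta subunit that pairs with Hadha, was listed at 0.620 ± 0.209 RPKM in null and 0.569 ± 0.102 RPKM in flox hearts, against 53.6 and 55.1 RPKM for Hadha. The gene table holds a pseudogene copy, Hadhb-ps, on chromosome 2, so the value of Hadhb is uncertain, and how the authors' counting treated such reads was not tested.

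The electron transfer flavoprotein passes electrons of beta-oxidation on to the respiratory chain. Etfb, its beta subunit, measured 128, 129.8, 126, 101 and 113 RPKM in the null hearts, against 162, 149, 145, 135 and 148 RPKM in the flox hearts at E9.5. The groups did not overlap and Etfb fell (log2 difference -0.31, SE 0.0773, limma adjusted p = 0.0201). That call ended without flox heart 1 (adjusted p = 0.0517) and without null heart 5 (adjusted p = 0.0536). Etfa, the alpha subunit, and Etfdh, the oxidoreductase that hands electrons to ubiquinone, had log2 differences of -0.04 and -0.05 and did not pass. At E10.5 Etfb measured 102, 109 and 187 RPKM in the null hearts, against 112, 93.4 and 135 RPKM in the flox hearts, where null heart 3 was highest and the other 2 lay within the flox range, and did not pass (log2 difference 0.19, SE 0.253, limma adjusted p = 0.675).

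Of 4 subunit genes of the pyruvate dehydrogenase complex, 1 passed at E9.5 (25.0%, against 17.2% of all genes). Dlat, the E2 acetyltransferase core, measured 27.6, 27.1, 30.2, 27.2 and 30.7 RPKM in the null hearts, against 33.0, 36.5, 31.5, 34.8 and 36.4 RPKM in the flox hearts. Null and flox hearts did not overlap, and Dlat fell (log2 difference -0.27, SE 0.0598, limma adjusted p = 0.0125). At E10.5 Dlat measured 29.3, 32.1 and 32.7 RPKM in the null hearts, against 44.4, 29.5 and 40.9 RPKM in the flox hearts, with flox heart 2 among the null hearts, and did not pass (log2 difference -0.26, SE 0.177, limma adjusted p = 0.391). Pdhb, the E1 beta subunit, measured 25.5 ± 3.66 RPKM in null and 30.3 ± 2.13 RPKM in flox hearts at E9.5 (-0.25, limma adjusted p = 0.0828). Pdha1, the E1 alpha subunit, and Dld, the E3 dihydrolipoamide dehydrogenase that also serves oxoglutarate dehydrogenase, had log2 differences of -0.04 and -0.07 at E9.5. At E10.5 both stood lower in every null heart than in every flox heart, and neither passed. Dld measured 94.2, 97.7 and 101 RPKM in the null hearts, against 147, 119 and 132 RPKM in the flox hearts there (log2 difference -0.44, SE 0.144, limma adjusted p = 0.14), and Pdha1 106, 106 and 105 RPKM in the null hearts, against 154, 113 and 137 RPKM in the flox hearts (log2 difference -0.34, limma adjusted p = 0.246).

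Of 13 TCA cycle genes, 5 fell at E9.5 (38.5%, against 10.3% of all genes) and 0 rose. Their median log2 difference was -0.21, against -0.04 over all genes. Fh1, fumarate hydratase, measured 74.2, 77.7, 75.1, 77.9 and 77.1 RPKM in the null hearts, against 102, 104, 92.6, 95.2 and 97.7 RPKM in the flox hearts. The null hearts lay close together, all below the flox hearts, and Fh1 fell (log2 difference -0.36, SE 0.0456, limma adjusted p = 0.000631). Mdh2, mitochondrial malate dehydrogenase, measured 267, 265, 259, 221 and 246 RPKM in the null hearts, against 332, 329.8, 319, 306 and 313 RPKM in the flox hearts. It was the most abundant member in flox hearts at this stage, every null heart lay below every flox heart, and Mdh2 fell (log2 difference -0.35, SE 0.0606, limma adjusted p = 0.00374). Idh3b, the beta subunit of the NAD-dependent isocitrate dehydrogenase, measured 79.8, 81.7, 78.4, 84.3 and 80.8 RPKM in the null hearts, against 97.9, 106, 92.0, 96.5 and 90.5 RPKM in the flox hearts. The groups did not overlap (log2 difference -0.25, SE 0.0508, limma adjusted p = 0.00782). Suclg1, the alpha subunit shared by both succinyl-CoA ligases, measured 82.1, 80.6, 86.4, 79.0 and 79.9 RPKM in the null hearts, against 105, 96.5, 94.4, 90.5 and 94.4 RPKM in the flox hearts. The 2 groups were again separate (log2 difference -0.23, SE 0.0499, limma adjusted p = 0.01). Idh2, the NADP-dependent isocitrate dehydrogenase of mitochondria, measured 182, 207, 210.5, 201 and 189 RPKM in the null hearts, against 220.3, 248, 216, 244 and 223 RPKM in the flox hearts. Its groups were separated by a narrow gap, and its call (log2 difference -0.22, SE 0.0616, limma adjusted p = 0.0335) ended in 5 of the 10 fits that left out 1 library, with log2 differences of -0.24 to -0.19.

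The other 8 TCA cycle genes did not pass at E9.5. Idh3a, the catalytic subunit of the same enzyme as Idh3b, measured 103 ± 11.9 RPKM in null and 127 ± 12.7 RPKM in flox hearts, with the highest null hearts inside the flox range, and just missed the threshold (log2 difference -0.30, SE 0.0949, limma adjusted p = 0.0541). The authors' deposited table lists Idh3a at E9.5 with a log2 ratio of control over null of 0.25 (authors' adjusted p = 0.0259). Mdh1, the cytosolic malate dehydrogenase of the malate-aspartate shuttle, had a difference like that of Idh2 (log2 difference -0.21, SE 0.0753, limma adjusted p = 0.0754). Dlst and Ogdh, 2 subunits of oxoglutarate dehydrogenase, had log2 differences of -0.19 and -0.15, and Sucla2, the ADP-forming ligase subunit, -0.09. Cs, citrate synthase, the entry step of the cycle, measured 220.3 ± 10.2 RPKM in null and 217 ± 11.6 RPKM in flox hearts (0.02), Idh3g 0.02 and Suclg2, the GDP-forming ligase subunit, 0.10 on the log2 scale.

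At E10.5 these 5 genes overlapped between the groups and did not pass. Fh1 measured 86.2, 86.0 and 103 RPKM in the null hearts, against 126, 96.5 and 117 RPKM in the flox hearts (log2 difference -0.30, SE 0.162, limma adjusted p = 0.3). Mdh2 measured 247, 253 and 369 RPKM in the null hearts, against 258, 198 and 316 RPKM in the flox hearts, with a difference of opposite sign to E9.5 (log2 difference 0.17, SE 0.235, limma adjusted p = 0.689). Idh3b measured 101, 89.2 and 113 RPKM in the null hearts, against 108, 91.7 and 113 RPKM in the flox hearts, groups that overlapped almost wholly (log2 difference -0.05, SE 0.158, limma adjusted p = 0.884). Suclg1 measured 72.4, 77.9 and 99.8 RPKM in the null hearts, against 102, 82.9 and 109 RPKM in the flox hearts, with null hearts 1 and 2 below all flox hearts and null heart 3 among them (log2 difference -0.24, SE 0.179, limma adjusted p = 0.448). Idh2 measured 268, 218 and 226 RPKM in the null hearts, against 245, 180.4 and 277 RPKM in the flox hearts, with all null hearts inside the flox range (log2 difference 0.04, SE 0.2, limma adjusted p = 0.93).

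The sequences before the starts of Fh1 and Mdh2 are shown because these 2 TCA cycle genes had the smallest p of their group and a CHD4 peak lay over each start. The Fh1 sequence is 120 bases of chr1:175625636-175625755, minus strand, and the Mdh2 sequence 250 bases of chr5:135778399-135778648, plus strand (RefSeq, GRCm38.p6, written 5′ to 3′ along the gene). Capitals mark GC boxes (GGGCGG or CCGCCC) and CCAAT boxes (CCAAT or ATTGG).
Fh1: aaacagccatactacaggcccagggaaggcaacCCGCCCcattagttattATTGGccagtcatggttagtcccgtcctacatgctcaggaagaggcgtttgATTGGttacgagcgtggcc
Mdh2: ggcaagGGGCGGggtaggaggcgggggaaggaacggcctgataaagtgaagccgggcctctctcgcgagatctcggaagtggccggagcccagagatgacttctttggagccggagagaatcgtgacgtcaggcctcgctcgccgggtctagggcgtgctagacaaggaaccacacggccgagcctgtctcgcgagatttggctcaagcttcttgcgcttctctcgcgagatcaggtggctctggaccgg
The Fh1 peak was 893 bp wide (chr1:175625496-175626388) and the Mdh2 peak 1276 bp (chr5:135778295-135779570).

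**Figure D3:**
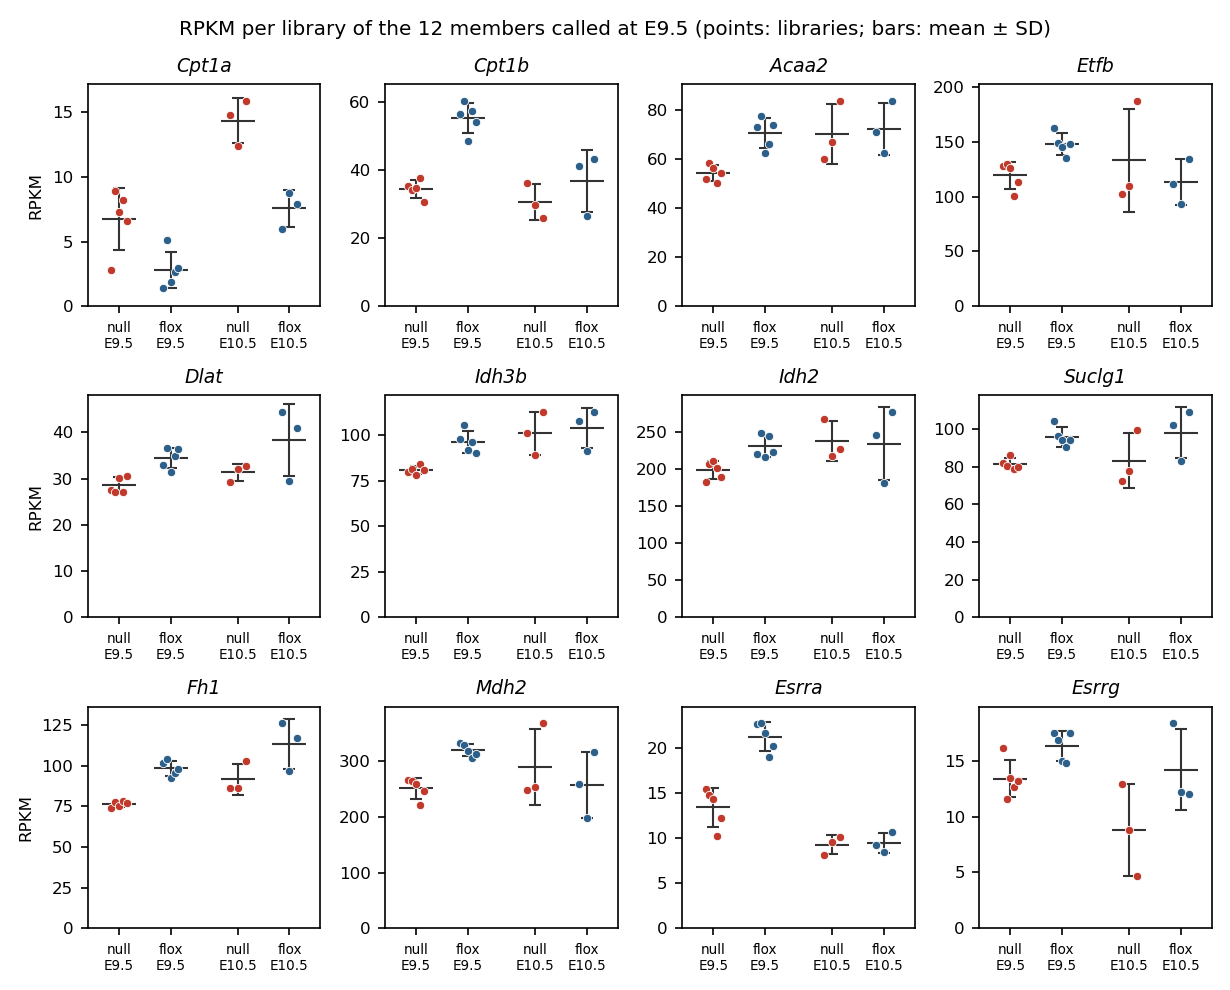
RPKM of each library for the 12 members called at E9.5, at both stages, with null hearts in red left of flox hearts in blue and bars for the mean and SD. At E9.5 the 2 groups do not overlap in 10 of the 12 panels, and Cpt1a and Esrrg are the exceptions.

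Of the 4 regulators, Esrra and Esrrg were lower in null hearts at E9.5, Ppargc1a did not pass, and Ppara was below the expression filter of a mean of 0.5 RPKM. Esrra, which encodes the nuclear receptor ERRα, measured 15.5, 14.8, 14.3, 10.2 and 12.3 RPKM in the null hearts, against 22.7, 22.8, 21.7, 19.0 and 20.2 RPKM in the flox hearts at E9.5. All null hearts lay below all flox hearts (13.4 ± 2.14 RPKM in null hearts and 21.3 ± 1.66 RPKM in flox hearts, SD, n = 5 each), and Esrra fell (log2 difference -0.66, SE 0.106, limma adjusted p = 0.00258). At E10.5 Esrra measured 8.09, 9.62 and 10.2 RPKM in the null hearts, against 9.23, 8.45 and 10.7 RPKM in the flox hearts. These groups overlapped, and the difference did not pass (log2 difference -0.02, SE 0.161, limma adjusted p = 0.941). Esrrg, which encodes the related receptor ERRγ, measured 16.1, 11.6, 13.5, 12.6 and 13.2 RPKM in the null hearts, against 17.5, 16.8, 15, 14.8 and 17.5 RPKM in the flox hearts at E9.5. Null heart 1 lay among the flox hearts, the other null hearts lay below them, and Esrrg fell by a margin close to the threshold (log2 difference -0.28, SE 0.0875, limma adjusted p = 0.0497), a call that ended in 8 of the 10 fits that left out 1 library (-0.35 to -0.23). At E10.5 Esrrg measured 13.0, 8.82 and 4.66 RPKM in the null hearts, against 18.4, 12.2 and 12.1 RPKM in the flox hearts, with null heart 1 inside the flox range and the other 2 below it (log2 difference -0.74, SE 0.335, limma adjusted p = 0.232).

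Ppargc1a, which encodes the coactivator PGC-1α, measured 10.1, 8.64, 10.0, 12.7 and 10.4 RPKM in the null hearts, against 10.3, 11.3, 8.78, 8.81 and 11.5 RPKM in the flox hearts at E9.5. The groups overlapped throughout (log2 difference 0.03, SE 0.108, limma adjusted p = 0.868). At E10.5 it measured 14.1, 9.37 and 6.0 RPKM in the null hearts, against 10.7, 8.26 and 9.15 RPKM in the flox hearts, with the null hearts on both sides of the flox hearts (log2 difference -0.01, SE 0.277, limma adjusted p = 0.989). Ppara, which encodes the fatty acid receptor PPARα, measured 0.108, 0.179, 0.166, 0.156 and 0.147 RPKM in the null hearts, against 0.223, 0.283, 0.190, 0.301 and 0.396 RPKM in the flox hearts at E9.5. Every null heart lay below every flox heart at this low level, and without the filter limma called Ppara lower (adjusted p = 0.0435). At E10.5 Ppara measured 0.207, 0.296 and 0.183 RPKM in the null hearts, against 0.340, 0.406 and 0.230 RPKM in the flox hearts, and the groups overlapped. The authors' deposited table lists Ppara at E9.5 with a log2 ratio of control over null of 0.62 (adjusted p = 0.0153).

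The sequence before 1 annotated start of Esrra (chr19:6921809) is shown because Esrra was the regulator with the largest called difference and CHD4 peaks lay on both sides of this start. The annotated gene begins further upstream, at chr19:6922048, so most of the bases shown lie inside it. The 250 bases are from chr19:6921809-6922058, minus strand (RefSeq, GRCm38.p6), with GC boxes (CCGCCC) in capitals.
Esrra: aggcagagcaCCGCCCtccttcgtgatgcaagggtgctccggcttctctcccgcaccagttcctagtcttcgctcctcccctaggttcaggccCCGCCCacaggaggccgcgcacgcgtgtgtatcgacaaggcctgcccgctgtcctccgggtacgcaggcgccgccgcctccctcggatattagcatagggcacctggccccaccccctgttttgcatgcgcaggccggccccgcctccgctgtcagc
The peak over most of this window, the outer gene end included, spanned chr19:6921866-6922879 (1014 bp). Others spanned chr19:6921055-6921436 and chr19:6923838-6924862.

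At E10.5, 0 of 36 members passed limma's test, against 2.07% of all genes tested (1.77% higher and 0.305% lower). The authors' deposited table lists 1 member at E10.5, Cpt1a (authors' adjusted p = 0.000472). Without adjustment, p was under 0.05 in 2 higher members, Cpt1a and Acadl, and in 1 lower, Dld. Limma's voom on whole reads called 1 member higher, Cpt1a (log2 difference 0.93, adjusted p = 0.0461), and limma with library weights called Cpt1a (0.76, adjusted p = 0.0211) and 1 member lower, Dld. Every null heart lay above every flox heart in 2 members (13.9% of all genes) and below in 2, Pdha1 and Dld (17.4% of all genes), or 31.3% of all genes in either direction. The median log2 difference was -0.03, as over all genes, and 20 of 36 members were negative, against 53.7% of all genes. These values rest on single libraries: without flox heart 2 the median was -0.14 with 28 of 36 negative, and without flox heart 3 it was 0.06 with 16 negative. Cardiomyocyte markers had a mean log2 level of 8.80, 8.14 and 8.74 in flox hearts 1, 2 and 3, against 8.88, 8.57 and 8.96 in the null hearts. Of these 12 markers 0 were called at E10.5, and 9 were positive (median log2 difference 0.22). The part of cardiomyocyte content in the members' values was not tested. Calls over all genes numbered 292, against 62 without flox heart 3, 63 without flox heart 1, 92 without flox heart 2 and 139 without null heart 2. In simulated data for this comparison, with 200 of 14100 genes changed, the fit recovered 0% of changes of 0.5 and of 1 on the log2 scale. On the real libraries the same fit called 292 genes, among them Slc25a1 and Pfkl (given below) at differences of about those sizes. The simulation therefore does not show what could be detected in the real libraries.

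Whether the null minus flox difference changed between stages was tested as an interaction over the 16 libraries. Of 36 members, 0 passed in limma, against 4.04% of all genes (2.62% higher and 1.42% lower), and 6 had an unadjusted p under 0.05. The 542 calls over all genes behind that share rest on single libraries: they numbered between 4, without E10.5 flox heart 1, and 1796, without E10.5 null heart 2, and stayed within 1.5 times 542 only without null heart 1, null heart 2 or flox heart 5 of E9.5 or null heart 1 of E10.5. Esrra came closest, with a log2 difference 0.63 higher at E10.5 than at E9.5 (limma adjusted p = 0.0549), and Cpt1a had -0.26 (adjusted p = 0.76). Esrra passed with libraries scaled to a common median (0.62, adjusted p = 0.0437) and in 4 of the fits that left out 1 library. A call at E9.5 without one at E10.5 is therefore not shown to be a difference between the stages, except for Esrra under those settings and Mdh2 without E10.5 flox heart 3 (0.68, limma adjusted p = 0.0469).

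Between the stages the levels are described only, because stage, table and RNA input (200 ng at E9.5, 300 ng at E10.5) cannot be told apart. Cpt1a averaged 14.4 RPKM at E10.5 and 6.76 RPKM at E9.5 in null hearts, and 7.57 RPKM at E10.5 and 2.81 RPKM at E9.5 in flox hearts. Esrra averaged 9.29 RPKM at E10.5 and 13.4 RPKM at E9.5 in null hearts, and 9.46 RPKM at E10.5 and 21.3 RPKM at E9.5 in flox hearts. In flox hearts at E9.5 the members ran in level from 0.279 RPKM for Ppara and 0.569 RPKM for Hadhb through 55.5 RPKM for Cpt1b to 217 RPKM for Cs, 230.4 RPKM for Idh2 and 320 RPKM for Mdh2. Cs and Idh2, neighbours in that order, differed by less than the larger of their SDs.

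Companion genes of the same pathways were counted in the same fits. At E9.5, of 33 other fatty acid oxidation genes, 10 fell and 0 rose (30.3% called, against 17.2% of all genes; median log2 difference -0.17). The count was 6 without flox heart 1, flox heart 2, null heart 3 or null heart 5, and 2 with the erythroid level in the fit. Acacb, the mitochondrial acetyl-CoA carboxylase whose product malonyl-CoA inhibits CPT1, measured 1.98 ± 0.175 RPKM in null and 4.75 ± 0.825 RPKM in flox hearts (log2 difference -1.07, SE 0.106, limma adjusted p = 0.000154). Mlycd, which breaks malonyl-CoA down, measured 7.63 ± 0.865 RPKM in null and 10.1 ± 0.475 RPKM in flox hearts (log2 difference -0.39, SE 0.0769, limma adjusted p = 0.00678). Acaca, the cytosolic carboxylase that also makes malonyl-CoA, did not pass (log2 difference -0.13, limma adjusted p = 0.453). Others that fell were Acads, the short-chain acyl-CoA dehydrogenase (-0.49), and Decr2, the peroxisomal dienoyl-CoA reductase (-0.55). Of 12 pyruvate entry genes 4 fell and 0 rose (33.3% called, median -0.08). These were Mpc2 of the mitochondrial pyruvate carrier (-0.34), the inhibitory kinase Pdk3 (-0.53), Ldhb of lactate dehydrogenase (-0.55) and Pdpr, a regulator of the pyruvate dehydrogenase phosphatase (-0.35). Of 22 other TCA cycle and shuttle genes 6 fell and 1 rose (31.8% called, median -0.11). Among those that fell were the succinate dehydrogenase subunits Sdhb (-0.45) and Sdhc (-0.38). Of 19 other regulators 7 fell and 0 rose (36.8% called, median -0.11). Among these 7 were the mitochondrial deacylase Sirt5 (2.77 ± 0.264 RPKM in null and 5.11 ± 0.767 RPKM in flox hearts, -0.77), Esrrb (-0.57), Rxrb (-0.27) and Gabpa (-0.20). The count for regulators was 4 without flox heart 1, null heart 2, null heart 3 or null heart 5. With the erythroid level in the fit 0 pyruvate entry genes, 3 other TCA cycle and shuttle genes and 1 regulator were called lower.

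The respiratory chain takes up the electrons that both pathways release. Of 30 of its subunit genes, 20 fell and 0 rose at E9.5 (66.7% called, against 17.2% of all genes), all 30 were negative, and the median was -0.24. With the erythroid level in the fit 2 were called lower at a median of -0.21, and without the 3 libraries with low epicardial markers 10 were, at a median of -0.22. Uqcrc1, a core subunit of complex III, measured 116 ± 4.88 RPKM in null and 151 ± 4.32 RPKM in flox hearts (log2 difference -0.37, SE 0.0458, limma adjusted p = 0.00055), and Atp5d, the delta subunit of ATP synthase, 235 ± 24.5 RPKM in null and 334 ± 17.9 RPKM in flox hearts (log2 difference -0.51, SE 0.0754, limma adjusted p = 0.00153). Of 25 glycolysis and hypoxia genes, 2 fell and 0 rose at E9.5 (8.0% called, against 17.2% of all genes, median -0.09). These were Pfkm (-0.29) and Gapdh (-0.56). Gapdh is uncertain because it was listed at only 2.05 ± 0.301 RPKM in null and 3.33 ± 0.962 RPKM in flox hearts and has many processed copies. The list's median was 0.07 without flox heart 4 and -0.22 without null heart 4, the libraries highest in the hypoxia gene Ndrg1 at this stage (29.1 RPKM in null heart 4 and 1.58 to 2.22 RPKM in the other null hearts, 8.31 RPKM in flox heart 4 and 1.02 to 1.98 RPKM in the other flox hearts).

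At E10.5 all 25 glycolysis and hypoxia genes had positive differences with a median of 1.02. In 21 of them every null heart lay above every flox heart, against 13.9% of all genes. Of the 25, 3 passed, all higher, against 1.77% of all genes called higher. These were Pfkl, a phosphofructokinase (87.6 ± 8.88 RPKM in null and 43.1 ± 4.62 RPKM in flox hearts, log2 difference 1.01, SE 0.149, limma adjusted p = 0.0172), Ndufa4l2 (4.05) and Ndrg1 (3.10). Ndrg1 measured 65.6, 17.9 and 12.3 RPKM in null hearts 1, 2 and 3, against 2.46, 2.76 and 2.05 RPKM in flox hearts, and the list's median was 0.78 without null heart 1. Of the companion lists of oxidative genes, Slc25a1, the mitochondrial citrate carrier, rose at E10.5 (21.7 ± 0.751 RPKM in null and 13.2 ± 1.38 RPKM in flox hearts, log2 difference 0.70, SE 0.139, limma adjusted p = 0.0454). It was 1 of 23 tested in its list (4.35%, against 2.07% of all genes). Across these lists 0 others passed limma's test in either direction. The medians of those lists ran from -0.15 to -0.10.

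**Figure D4:**
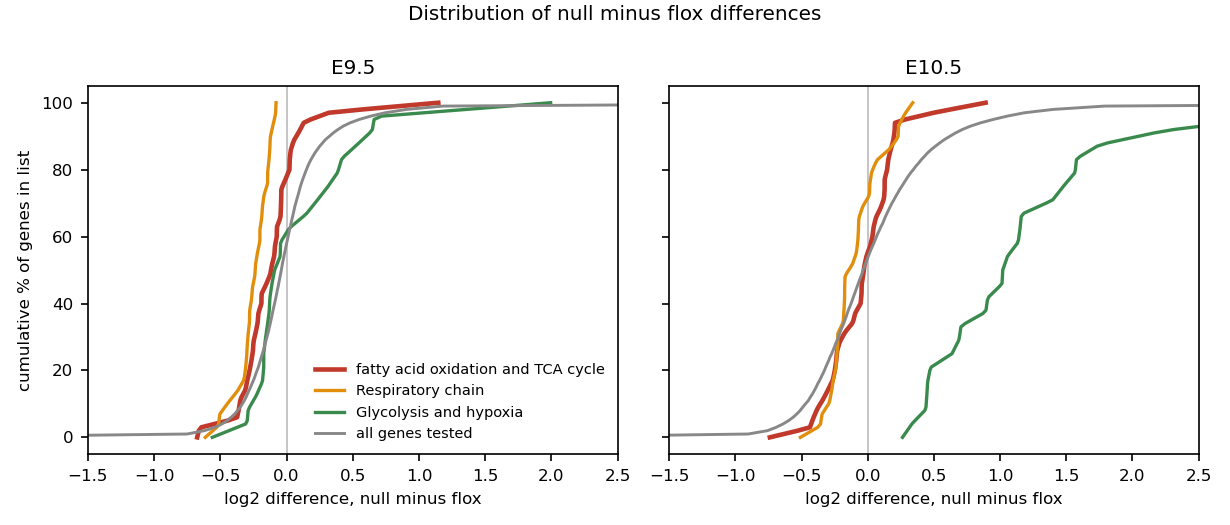
Cumulative percentage of genes by log2 difference of null minus flox hearts, for the members, the respiratory chain list, the glycolysis and hypoxia list and all genes tested, at E9.5 (left) and E10.5 (right); genes beyond 2.5 lie outside the axis. At E9.5 the members' curve (median -0.12) lies left of all genes (-0.04), and at E10.5 the glycolysis and hypoxia curve (median 1.02) lies to the right.

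CHD4 peaks lay near most of the members. A peak present in all 3 lists, sharing at least 1 bp, lay within 5 kb of an annotated start in 28 of 37 members, or 75.7%, against 61.9% of all genes. When the overlap had to cover most of a peak (0.5 of its length or more), 11 members had one (29.7%, against 32.9% of other genes), so the order turned. By the first rule, sharing at least 1 bp, 10 of the 11 members lower at E9.5 had a peak, as had 17 of 24 not called and the 1 higher. Over all genes the shares by that rule were 74.5% of lower genes, 64.5% of genes not called and 44.1% of higher genes. Dlat was the lower member without one. The 3 lists come from 2 biological and 3 technical replicates, the peaks are the authors', and ChIP was done in wild-type hearts, so a peak near a gene is a description of position.

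**Figure D5:**
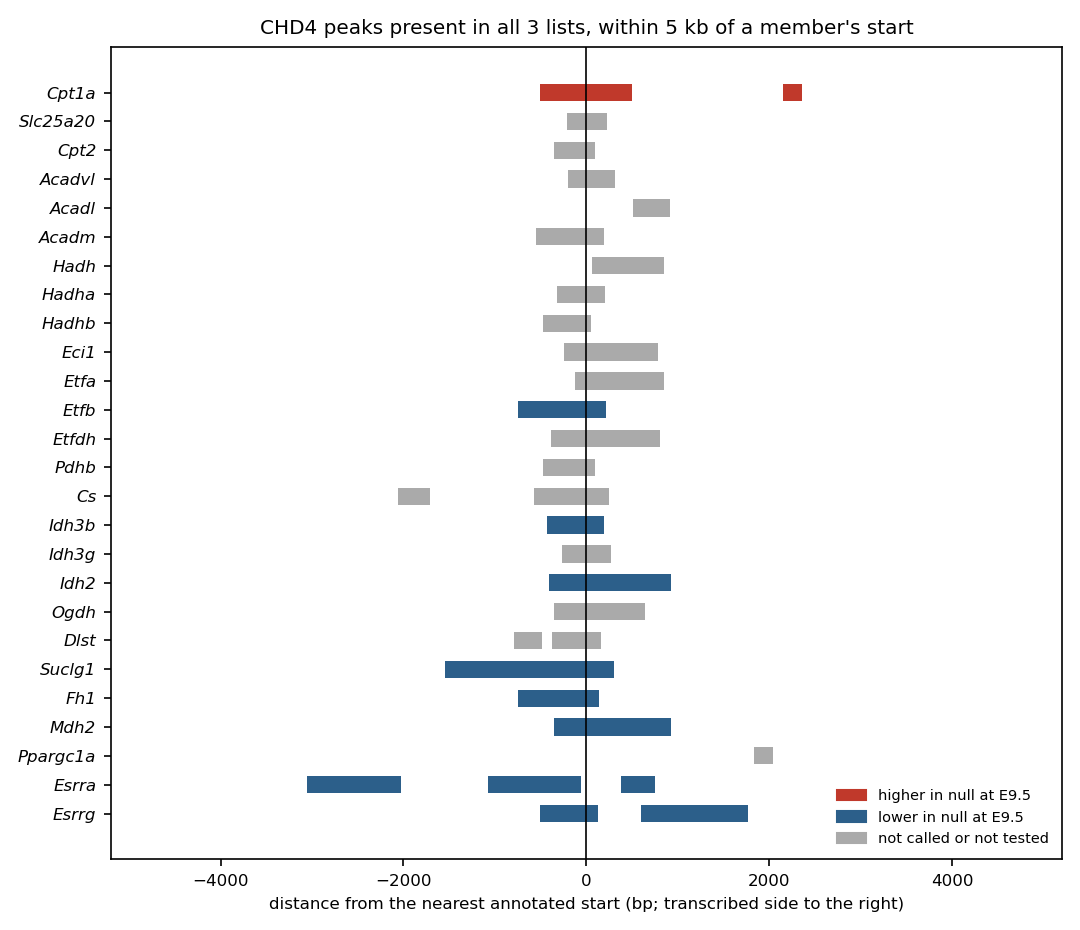
Position of CHD4 peaks of all 3 lists around the nearest annotated start of 26 members, in bp with the transcribed side to the right; bar length is peak width and colour the call at E9.5. Cpt1b and Acaa2 also had such peaks but are not drawn, since no strand was given for them.

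The 250 bases before the start were searched on both strands in the 34 members with a promoter in the RefSeq table and in 10601 genes in all. The estrogen-related receptor site TNAAGGTCA matched 0 members (0.858% of all genes), and the nuclear receptor direct repeat DR1 matched 0 members (0.0472%). The NRF1 palindrome matched 2 members, Etfdh and Ppara (1.81%), and the ETS motif CCGGAAGT matched 2, Slc25a20 and Cpt2 (6.24%). The shorter receptor half-site AAGGTCA, which the estrogen-related receptor site contains, matched 1 member, Acadm (3.6%). GC boxes (GGGCGG) matched 23 of 34 members, against 63.4% of all genes, and CCAAT 15 of 34, against 40.0%. The last 3 motifs and the promoters shown were chosen after values were seen.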

How the data were processed

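Polyadenylated, stranded RNA libraries were made from 200 ng (E9.5) or 300 ng (E10.5) of heart RNA, per the labels. Of the authors' processing, the submitters' processing notes list the mm10 build and, with no role given, MACS2, HTSeq 0.6.2, Bowtie 1.2.0, DESeq2 1.6.3, bedtools 2.25.0 and SAMtools 1.6. The deposited RPKM values and gene lengths in bp are the authors', with further steps not given in the sources used here. Column headers say KO and WT where the labels say null and flox. Multiplied by gene length, 100% of the values came out as whole reads with a tolerance of 0.01. Neither the labels nor the headers say how the authors' counting treated strand. In the authors' deposited comparison tables, the log2 fold change is control over null, and p-values are adjusted by the authors. Mean signal and test score in those deposited tables were not used. The peak score is the authors' deposited value, of unstated scale. The 2 input libraries were not analysed here.

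Each stage was fitted alone with limma 3.58.1 in R 4.3.3 (lmFit, eBayes with a trend) on log2(RPKM + 0.5), without covariates, for genes averaging at least 0.5 RPKM over a stage. This scale understates differences of low genes. Tests were two-sided, with Benjamini-Hochberg adjustment over all genes and a threshold of 0.05. All adjusted p-values of genes are limma's unless the authors' table is named. Ratios of member pairs were tested by exact permutation (scipy 1.17.1). Counting error limits low genes. No 2 libraries of a group agreed within sampling noise (lowest chi-square over its degrees of freedom 10.7, for genes with at least 10 reads), and replicates are biological, per the series text. The fit was tested on simulated data. At E9.5 it recovered 63% of changes of 0.5 and 87% of changes of 1 on the log2 scale, among 200 changed of 13643 genes, with 10 false calls. Gene positions and promoters are RefSeq's on GRCm38.p6, the assembly of mm10. Where no strand is given, either gene end counted as a start.

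The members and lists were chosen with earlier results of these data known. Values per library are given for every member called, for those whose groups do not overlap at both stages, and for Cpt1a, Cpt1b and the 4 regulators. Up to 4 called genes of smallest p were named per companion list and stage. A gene withheld from the text is not reported here. Acadl, Dld and Pdha1 were added after their values were seen. Alternatives were other pseudocounts, filters, scalings, covariates, library weights, voom, a replicate block, other peak rules, and leaving out each library. Others were chosen after seeing the data: an epicardial covariate, a foregut and liver covariate, and leaving out the 3 libraries with low epicardial markers.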

Additional observations from a re-analysis of the deposited data

Results flagged for a closer look

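Etfdh, which hands electrons from the electron transfer flavoprotein to ubiquinone, measured 35.3 RPKM in null heart 1 at E9.5, against 41.5 to 43.9 RPKM in the other 4 null hearts and 37.4 to 48.8 RPKM in the 5 flox hearts. Within the null group, the distance of null heart 1 from the nearest other null heart was large for a group of 5 samples. The lowest flox heart lay closer to it. Among the 74 groups of 5 looked at, chance marks about 1 in 20. Etfdh did not pass the test at E9.5 (limma adjusted p = 0.72).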

How the results depend on the processing

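At E9.5, where 11 members were lower and 1 higher, 9 to 11 were lower and 0 to 2 higher in fits that left out 1 library. With the erythroid level in the fit 2 were lower and 0 higher; 0 were higher without the expression filter and with library sex as a covariate, and 2 with the replicate block, and the cause was not tested. Replicate numbers were not taken to pair the libraries, since not every pair correlated (at E9.5 same-numbered deviations correlated at -0.136 to 0.519, at E10.5 at -0.0299 to 0.106), though 3 of 5 pairs at E9.5 correlated best with their own number, a hint from the data and not the design. With the block 15 members were lower at E9.5, adding Idh3a, Pdhb, Dlst and Acadvl (and Acadl, higher), and 0 passed at E10.5; 7 glycolysis and hypoxia genes were higher at E9.5. Without the 3 libraries with low epicardial markers 8 were lower and 1 higher. At E10.5, 1 member was lower with library weights, and 1 higher with library weights, with voom and with a mean of at least 1 RPKM; in fits that left out 1 library 0 were lower and 0 higher. For the difference between stages 1 member was higher with median scaling and 0 to 2 in fits that left out 1 library, with 0 lower. In pairs, 0 passed in every fit that left out 1 library. Peaks were near 11 members when 0.5 of a peak had to overlap.

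Cpt1b and Fh1 kept their calls at E9.5 under all 24 alternatives; Acaa2, Dlat, Idh3b, Mdh2 and Esrra lost theirs under 1 each, the erythroid term. Suclg1 lost its call under 2, Etfb under 5, Cpt1a and Idh2 under 11 and Esrrg under 15. Some uncalled differences changed sign. Ppargc1a at E9.5 was -0.02 with library sex, -0.07 with library weights, -0.02 without the 3 libraries with low epicardial markers, and -0.04 to 0.09 in fits that left out 1 library. Ppargc1a at E10.5 was 0.02 with median scaling, 0.04 rescaled without erythroid genes and the 10 most abundant genes, 0.42 with the erythroid term, 0.04 with sex, 0.00 with library weights, 0.46 with the foregut and liver term, and -0.30 to 0.29 without 1 library. Cpt1b at E10.5 was 0.12 with the erythroid and 0.15 with the foregut and liver term. Esrra at E10.5 was 0.02 rescaled, 0.03 with sex, 0.04 with the epicardial term, and -0.10 to 0.07 without 1 library.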
